A study of Homo sapiens with 4 samples.

Results

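The 10 genes described here encode enzymes that build triacylglycerol, the storage fat of lipid droplets, from glycerol-3-phosphate and fatty acids. They are GPAM, GPAT3 and GPAT4 at the first step, AGPAT2 and AGPAT3 at the second, LPIN1, LPIN2 and LPIN3 at the third, and DGAT1 and DGAT2 at the last. They were chosen by name, and all 10 were found among the 43622 genes of each table. RNA was sequenced in 4 libraries of 2 human lung cancer cell lines, A549 and H1993, with 1 library for each line and culture. The groups are A549 spheroids, A549 cells in adherent culture, H1993 spheroids and H1993 cells in adherent culture, none with a named drug or genetic change. Adherent cells grow as a layer on plastic, and spheroids are clusters of cells grown without attachment that serve as a model of cancer stem cells. The stated purpose of the study was to set the triacylglycerol pathway of spheroids against that of adherent cells.

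In the glycerol phosphate pathway, a glycerol-3-phosphate acyltransferase joins the first fatty acid to the glycerol backbone. A lysophosphatidate acyltransferase joins another to give phosphatidate, and a lipin removes the phosphate to give diacylglycerol. A diacylglycerol acyltransferase adds the last fatty acid. Phosphatidate and diacylglycerol are also the starting points of membrane phospholipids, so the earlier steps serve both ends.

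Total exon reads, the reads on the exons of known genes, were between 15331121 and 17681746 per library. All 10 genes were among the 15273 kept by a filter on low counts. The library labelled H1993 adherent resembled A549 adherent cells more than H1993 spheroids. Its log2 levels over the 15273 genes had a Pearson correlation of 0.947 with A549 adherent cells and 0.846 with H1993 spheroids, across genes that are not independent replicates. In that library line and culture cannot be told apart, so each value from it is given under its label. All 8 epithelial markers were measured in every comparison, with summed levels between 4218 and 12112 CPM, which are exon reads scaled by library size. Fibroblast markers summed to between 13.2 and 46.9 CPM, blood markers to between 4.79 and 12.4 CPM and endothelial markers to between 0.693 and 7.84 CPM. Lung lineage markers were near 0, with SFTPA1 at 0 reads in every library. NKX2-1 had 0 reads in both A549 libraries, 13 in H1993 spheroids and 12 in the library labelled H1993 adherent.

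Levels are given in TPM, the abundance scaled by exon length and library total, which allows comparison between genes. The order of genes then rests on the annotated exon length, from 1798 bases for AGPAT2 to 11861 for LPIN1. Differences are log2 folds of exon reads after scaling between libraries, with a 95% counting interval in brackets that covers counting error only. A gene was called higher or lower when its 2 libraries were at least 2-fold apart with a counting interval on one side of 0. With 1 library a group there is no test, and a fold compares libraries rather than conditions. Bulk RNA cannot tell fewer cells of a type from less RNA per cell.

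The 10 genes summed to 363 TPM in A549 spheroids, against 272 TPM in A549 adherent cells. H1993 spheroids summed to 623 TPM, against 293 TPM in the library labelled H1993 adherent. Most of the H1993 difference lay in AGPAT2 and DGAT1, with 304 and 146 TPM in spheroids. They had 71.7 and 33.0 TPM in the library labelled H1993 adherent, and 3 of the 10 genes had log2 folds below 0 in that pair. AGPAT2 was the most abundant and DGAT2 the least abundant of the 10 in all 4 libraries. In the A549 pair 2 of the 10 were called, both higher in spheroids, where 22.7% of all kept genes were called, 12.4% higher and 10.3% lower. In the H1993 pair as labelled 5 of the 10 were called, 3 higher and 2 lower, where 35.0% of all kept genes were called, 17.0% higher and 18.0% lower. The median log2 fold of the 10 was 0.42 in the A549 pair and 0.62 in the H1993 pair, beside medians of 0.00 over all kept genes. The share called lay near the background in the A549 pair and somewhat above it in the H1993 pair, on 10 genes.

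**Figure D1:**
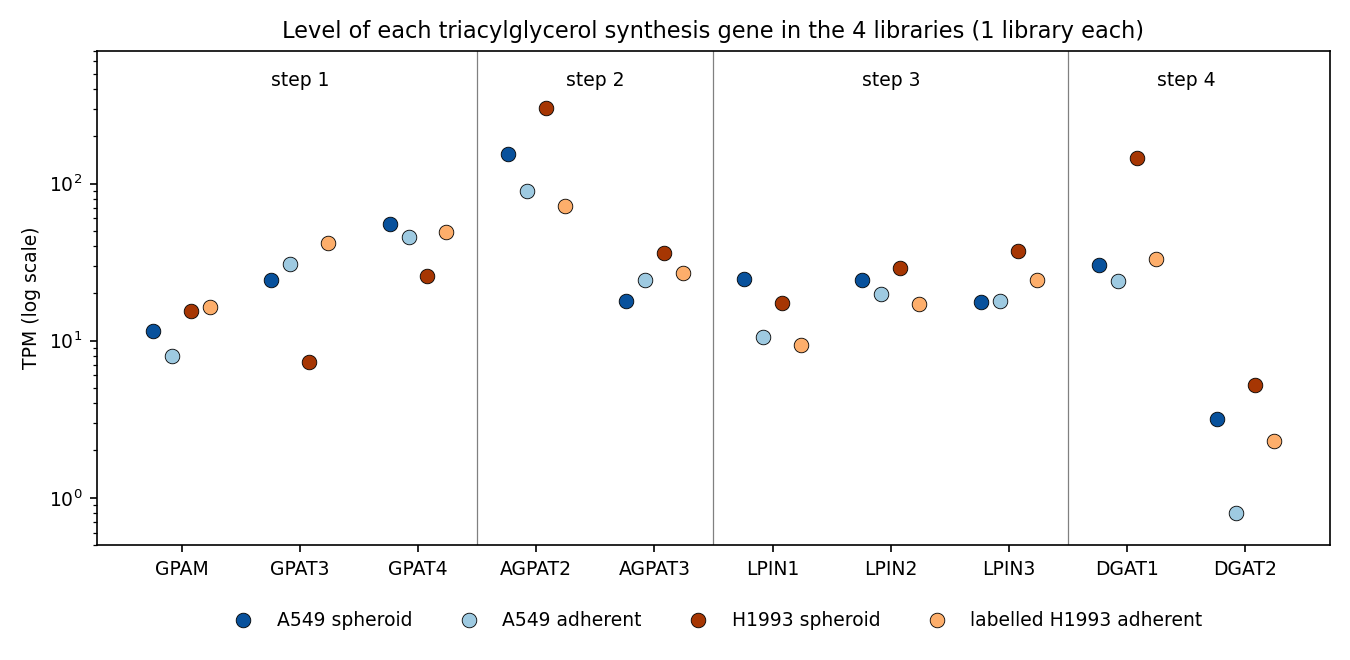
Level of each gene in TPM on a log axis, by pathway step, with 1 point for each of the 4 libraries. AGPAT2 is highest and DGAT2 lowest in each library, and the H1993 spheroid points stand apart from the other 3 for DGAT1 (145.97 TPM) above and GPAT3 (7.37 TPM) below.

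The first step was lower in H1993 spheroids, where GPAT3 and GPAT4 were called lower, and none of its genes was called in the A549 pair. The 3 genes summed to 90.7 TPM in A549 spheroids and 84.6 TPM in A549 adherent cells. They summed to 48.4 TPM in H1993 spheroids and 108 TPM in the library labelled H1993 adherent. With only the genes chosen here in each sum, this was the one step with a lower sum in H1993 spheroids than in the library labelled H1993 adherent.

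GPAT3 encodes an acyltransferase of the endoplasmic reticulum (ENSG00000138678, hg38 chr4:83535914-83605875, plus strand). It stood at 24.4 TPM from 439 exon reads in A549 spheroids and 30.8 TPM from 491 exon reads in A549 adherent cells. In H1993 spheroids it stood at 7.37 TPM from 109 reads, against 42.1 TPM from 745 reads in the library labelled H1993 adherent. H1993 spheroids were thus the lowest of the 4 libraries and the library labelled H1993 adherent the highest. The log2 fold was -2.57 (-2.89 to -2.30) in the H1993 pair and -0.22 (-0.41 to -0.04) in the A549 pair, the lowest of the 10 genes in the H1993 pair.

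The RefSeq promoter window of GPAT3 (GRCh38.p14, chr4:83535857-83536156, plus strand) covers 250 bases before the start site and 50 from it onwards. It is shown because GPAT3 had the lowest fold, and it holds no match, on either strand, to any of 4 motifs searched: CATTCC, bound by TEAD factors, TCACNCCAC, bound by SREBP, the direct repeat bound by PPAR dimers, and GCGTG, bound by hypoxia-inducible factors (HIF).
GPAT3: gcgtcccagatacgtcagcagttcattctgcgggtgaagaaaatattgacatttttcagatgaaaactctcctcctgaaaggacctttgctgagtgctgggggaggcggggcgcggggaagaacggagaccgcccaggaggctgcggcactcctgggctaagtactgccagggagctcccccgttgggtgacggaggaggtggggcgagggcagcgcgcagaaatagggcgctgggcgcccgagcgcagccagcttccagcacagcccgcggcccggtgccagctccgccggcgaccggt
Among 35116 RefSeq promoters of this length, CATTCC occurred in 14.0%, TCACNCCAC in 1.13%, the PPAR repeat in 0.0228% and GCGTG in 36.5%. A match describes these letters only.

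GPAT4 encodes another enzyme of the endoplasmic reticulum (ENSG00000158669, chr8:41577187-41625001, plus strand). Its level was 54.9 TPM in A549 spheroids and 45.8 TPM in A549 adherent cells. In H1993 spheroids it was 25.7 TPM, against 49.3 TPM in the library labelled H1993 adherent. The other 3 libraries lay within a narrow range and H1993 spheroids below it. The log2 fold was -1.01 (-1.13 to -0.90) in the H1993 pair, at the edge of the 2-fold limit, and 0.37 (0.28 to 0.46) in the A549 pair.

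GPAM encodes the mitochondrial acyltransferase of this step (ENSG00000119927, chr10:112149864-112215377, minus strand). It had 11.4 TPM in A549 spheroids and 7.95 TPM in A549 adherent cells, with a log2 fold of 0.63 (0.44 to 0.83). H1993 spheroids had 15.4 TPM, against 16.4 TPM in the library labelled H1993 adherent, with a fold of -0.16 (-0.32 to -0.01). Reads that span exon junctions numbered 127 in A549 spheroids and 119 in A549 adherent cells, a log2 fold of 0.09, so the A549 difference lay mostly in reads within exons. GPAM was called in neither pair.

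At the second step AGPAT2 had a higher TPM than AGPAT3 in all 4 libraries, and stood higher in spheroids in both pairs. AGPAT2 encodes a lysophosphatidate acyltransferase whose loss causes congenital lipodystrophy (ENSG00000169692, chr9:136673143-136687423, minus strand). It had 154 TPM from 1439 reads in A549 spheroids and 90.2 TPM from 746 reads in A549 adherent cells. In H1993 spheroids it had 304 TPM from 2331 reads, against 71.7 TPM from 657 reads in the library labelled H1993 adherent. Both spheroid libraries lay above both libraries labelled adherent. The log2 fold was 2.01 (1.89 to 2.14) in the H1993 pair, called higher, and 0.88 (0.76 to 1.01) in the A549 pair, under the limit.

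The AGPAT2 promoter window (RefSeq, GRCh38.p14, chr9:136687408-136687707, minus strand) is shown for the most abundant of the 10 genes. Capitals mark the HIF motif, as GCGTG with its first base at -199 from the start site and as its reverse complement at -22. The other 3 motifs have no match in it.
AGPAT2: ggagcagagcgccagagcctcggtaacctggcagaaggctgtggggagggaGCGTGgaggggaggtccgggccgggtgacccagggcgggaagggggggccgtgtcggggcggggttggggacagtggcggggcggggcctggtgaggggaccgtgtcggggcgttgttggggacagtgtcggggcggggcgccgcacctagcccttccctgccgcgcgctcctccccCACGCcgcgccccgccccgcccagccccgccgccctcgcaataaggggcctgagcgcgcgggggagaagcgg

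AGPAT3, another acyltransferase of the endoplasmic reticulum (ENSG00000160216, chr21:43865186-43986536, plus strand), differed little by culture. It had 17.8 TPM in A549 spheroids and 24.2 TPM in A549 adherent cells, a log2 fold of -0.33 (-0.45 to -0.21). It had 36.0 TPM in H1993 spheroids and 27.1 TPM in the library labelled H1993 adherent, a fold of 0.33 (0.24 to 0.43). The directions of the pairs were opposite and both were under the limit. The TPM of AGPAT2 was 8.67 times that of AGPAT3 in A549 spheroids, against 3.73 times in A549 adherent cells. In the H1993 pair it was 8.44 times in spheroids, against 2.64 times in the library labelled H1993 adherent.

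At the third step LPIN1 had the largest log2 fold of the lipins in both pairs. In the H1993 pair its counting interval overlapped those of LPIN2 and LPIN3. LPIN1 encodes a phosphatidate phosphatase that also acts as a transcriptional coactivator and is missing in the fatty liver dystrophy mouse (ENSG00000134324, chr2:11677595-11827409, plus strand). It had 24.7 TPM from 1523 reads in A549 spheroids and 10.6 TPM from 579 reads in A549 adherent cells. In H1993 spheroids it had 17.4 TPM from 883 reads, against 9.34 TPM from 565 reads in the library labelled H1993 adherent. The spheroid libraries again lay above both libraries labelled adherent. The log2 fold was 1.33 (1.19 to 1.47) in the A549 pair, called higher, and 0.83 (0.67 to 0.98) in the H1993 pair, under the limit.

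LPIN1 has 3 RefSeq promoter windows (GRCh38.p14, plus strand), and those at chr2:11677294-11677593 and chr2:11724065-11724364 are shown because the study's title names TEAD factors and because the 2 windows carry different motifs. In the first, capitals mark the TEAD motif CATTCC, with its first base at -204 from the start site. In the other, capitals mark the HIF motif GCGTG at -124. The window not shown, chr2:11746382-11746681, lies downstream of both and also holds a HIF match, as the reverse complement of GCGTG at 22. LPIN1 was the one gene with CATTCC among the 6 that have a window in the table, which hold 11 windows in all.
LPIN1 upstream start: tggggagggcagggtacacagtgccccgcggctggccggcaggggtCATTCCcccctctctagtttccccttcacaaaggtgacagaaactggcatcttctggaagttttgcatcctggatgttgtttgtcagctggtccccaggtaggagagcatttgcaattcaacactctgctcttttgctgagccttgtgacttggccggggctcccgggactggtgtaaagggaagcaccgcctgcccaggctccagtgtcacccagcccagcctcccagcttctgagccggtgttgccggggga
LPIN1 downstream start: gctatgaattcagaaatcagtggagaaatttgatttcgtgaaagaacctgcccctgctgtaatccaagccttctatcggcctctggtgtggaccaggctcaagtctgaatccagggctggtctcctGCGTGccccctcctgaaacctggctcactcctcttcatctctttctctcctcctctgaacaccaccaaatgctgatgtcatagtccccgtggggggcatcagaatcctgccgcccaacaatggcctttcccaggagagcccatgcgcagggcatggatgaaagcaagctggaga

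LPIN2 encodes a lipin whose loss causes an inflammatory bone disease (ENSG00000101577, chr18:2916994-3013315, minus strand). It had 24.2 TPM in A549 spheroids and 19.7 TPM in A549 adherent cells, a log2 fold of 0.41 (0.26 to 0.56). It had 29.0 TPM in H1993 spheroids and 16.99 TPM in the library labelled H1993 adherent, a fold of 0.70 (0.55 to 0.85). Both folds were above 0 and under the limit.

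LPIN3 encodes the last of the lipins (ENSG00000132793, chr20:41340920-41360582, plus strand). It had 17.7 TPM in A549 spheroids and 17.8 TPM in A549 adherent cells. H1993 spheroids had 37.1 TPM, against 24.3 TPM in the library labelled H1993 adherent. The fold was 0.10 (-0.11 to 0.30) in the A549 pair, where the counts could not show a difference, and -0.015 with scaling by total exon reads alone. In the H1993 pair it was 0.53 (0.38 to 0.70). In A549 spheroids LPIN1 and LPIN2 differed in TPM by less than counting error, with a ratio of 1.02 (0.939 to 1.11). By TPM LPIN1 was the lowest of the lipins in the other 3 libraries. In exon reads, which are not scaled by length, LPIN1 was the highest lipin in H1993 spheroids, with 883 reads. LPIN2 had 842 and LPIN3 724 there.

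The last step had its highest TPM sum in H1993 spheroids. Its 2 genes summed to 33.3 TPM in A549 spheroids and 24.9 TPM in A549 adherent cells. They summed to 151 TPM in H1993 spheroids and 35.4 TPM in the library labelled H1993 adherent. DGAT1 and DGAT2 were both called higher in the H1993 pair, and DGAT2 alone in the A549 pair.

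DGAT1 encodes a diacylglycerol acyltransferase of the membrane-bound O-acyltransferase family (ENSG00000185000, chr8:144314584-144326910, minus strand). It had 30.2 TPM from 647 reads in A549 spheroids and 24.1 TPM from 458 reads in A549 adherent cells. In H1993 spheroids it had 146 TPM from 2573 reads, against 33.0 TPM from 696 reads in the library labelled H1993 adherent. One library, H1993 spheroids, stood far above the other 3. The log2 fold was 2.07 (1.95 to 2.19) in the H1993 pair and 0.43 (0.26 to 0.61) in the A549 pair. DGAT1 overlaps HSF1 on the opposite strand, which had 1492 reads in A549 spheroids, 1146 in A549 adherent cells, 1580 in H1993 spheroids and 1109 in the remaining library. The overlap is limited to one end of DGAT1, from its boundary at 144314584 to the end of HSF1 at 144314722. Whether counting used strand is not given. Of the 2573 DGAT1 reads of H1993 spheroids 2534 were unique, which does not tell the strands apart. Of the 8 epithelial markers 7 were called higher in the H1993 pair, with a sum of 12112 CPM in H1993 spheroids, against 4218 CPM in the library labelled H1993 adherent. In the A549 pair 2 of the 8 were called higher, KRT19 and CLDN4, and 2 lower, KRT18 and KRT7. Their sum there was 5889 CPM in spheroids and 10993 CPM in adherent cells. Their part in the DGAT1 values was not tested.

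DGAT2 encodes the other diacylglycerol acyltransferase, of an unrelated protein family (ENSG00000062282, chr11:75759512-75801535, plus strand). It had 3.17 TPM from 130 reads in A549 spheroids and 0.797 TPM from 29 reads in A549 adherent cells. In H1993 spheroids it had 5.22 TPM from 176 reads, against 2.31 TPM from 93 reads in the library labelled H1993 adherent. Both spheroid libraries lay above both libraries labelled adherent. DGAT2 had the fewest exon reads of the 10 genes in each library except H1993 spheroids, where GPAT3 had 109. The log2 fold was 2.03 (1.51 to 2.74) in the A549 pair and 1.09 (0.73 to 1.48) in the H1993 pair. Of 6 adipocyte markers, ADIPOQ and CIDEA were at 0 reads in every library. The marker sum was 41.0 CPM in A549 spheroids and 3.40 CPM in A549 adherent cells, and 4.12 CPM in H1993 spheroids and 8.06 CPM in the library labelled H1993 adherent. The A549 sum consisted mostly of CIDEC and PLIN1, which encode lipid droplet proteins.

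The isoenzyme that led a step was mostly the same across libraries, while its share varied. GPAT4 led the first step with 60.5% of its TPM in A549 spheroids and 54.2% in A549 adherent cells, and with 53.1% in H1993 spheroids and 45.7% in the library labelled H1993 adherent. GPAM followed in H1993 spheroids with 31.7% (29.6 to 34.0), against 15.2% (14.2 to 16.2) in the library labelled H1993 adherent. GPAT3 took the second place in the other 3 libraries, with 26.9% in A549 spheroids, 36.4% in A549 adherent cells and 39.1% in the library labelled H1993 adherent. The order of GPAM and GPAT3 was therefore reversed in H1993 spheroids, where GPAT3 had 15.2% (12.9 to 17.9).

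AGPAT2 held 89.7% (88.9 to 90.4) of the second step in A549 spheroids and 78.9% (77.3 to 80.3) in A549 adherent cells. It held 89.4% (88.8 to 90.0) in H1993 spheroids and 72.5% (70.7 to 74.3) in the library labelled H1993 adherent. The spheroid libraries of both lines thus had nearly the same share, and a higher one than both libraries labelled adherent. LPIN1 held 37.1% (35.4 to 38.9) of the third step in A549 spheroids and 22.02% (20.3 to 23.8) in A549 adherent cells. It held 20.9% (19.5 to 22.3) in H1993 spheroids and 18.4% (16.96 to 20.01) in the library labelled H1993 adherent. LPIN3 led the step in both H1993 libraries, with 44.4% in spheroids and 48.0% in the library labelled adherent, and LPIN2 led in A549 adherent cells with 40.9%.

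DGAT2 held 9.50% (8.0 to 11.3) of the last step in A549 spheroids and 3.20% (2.22 to 4.59) in A549 adherent cells. It held 3.45% (2.98 to 3.998) in H1993 spheroids and 6.53% (5.32 to 7.98) in the library labelled H1993 adherent. The DGAT2 share was therefore higher in spheroids in the A549 pair and lower in spheroids in the H1993 pair, although DGAT2 reads were higher in spheroids in both. The TPM of DGAT1 was 9.52 times that of DGAT2 in A549 spheroids and 30.2 times in A549 adherent cells. It was 28.0 times in H1993 spheroids and 14.3 times in the library labelled H1993 adherent.

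**Figure D2:**
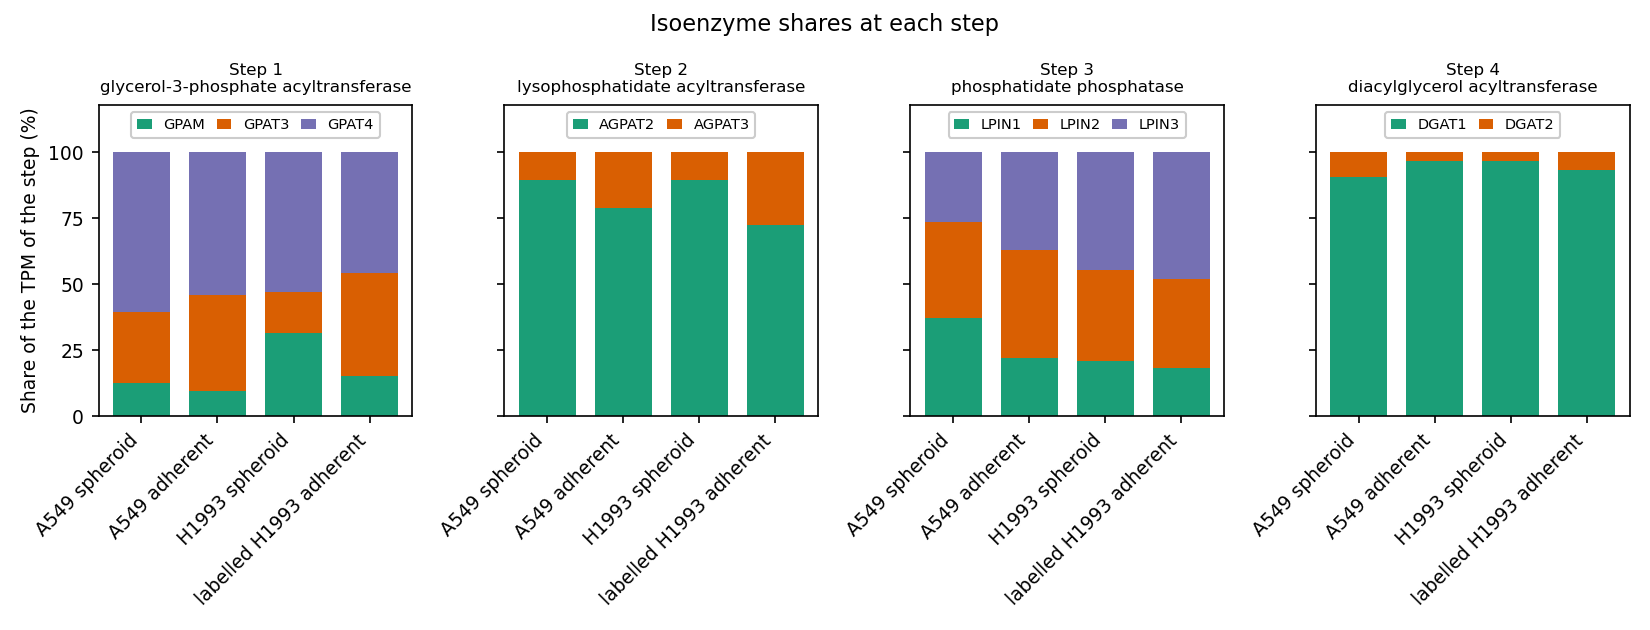
Share of the summed TPM of each step, in percent, held by each isoenzyme, with 1 stacked bar for each of the 4 libraries. AGPAT2 holds 89.7% and 89.4% in the spheroids of A549 and H1993, and GPAM holds 31.7% of the first step in H1993 spheroids.

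The shares depend on which isoenzymes are counted. With AGPAT1, AGPAT4, AGPAT5 and LCLAT1 in the sum, AGPAT2 held 56.6% in A549 spheroids and 37.7% in A549 adherent cells, and 69.7% in H1993 spheroids and 30.03% in the library labelled H1993 adherent. AGPAT2 still led the second step in all 4 libraries. With the lipid phosphate phosphatases in the sum, which also remove phosphate from phosphatidate, PLPP1 led the third step in A549 spheroids (33.6%), A549 adherent cells (34.1%) and the library labelled H1993 adherent (39.3%). In H1993 spheroids LPIN3 led with 25.9% and PLPP1 had 15.5%. GPAT2, another mitochondrial enzyme, had 140 reads in H1993 spheroids, against 13 in the library labelled H1993 adherent. Both A549 libraries held almost none, with 0 reads in spheroids and 1 in adherent cells. GPAT2 took 10.6% of the first step in H1993 spheroids. For the last step the sum was widened by TMEM68, an acyltransferase that can also make triacylglycerol, and by MOGAT1, MOGAT2, MOGAT3, DGAT2L6, AWAT1 and AWAT2. TMEM68 then held 26.2% in A549 spheroids and 28.6% in A549 adherent cells. It held 12.6% in H1993 spheroids and 24.7% in the library labelled H1993 adherent, above DGAT2 in every library.

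Intron reads, which come mostly from RNA not yet spliced, were few for most of the 10 genes. LPIN1 had the largest share of its reads in introns, with 19.4% in A549 spheroids and 23.5% in A549 adherent cells, and 20.5% in H1993 spheroids and 24.7% in the library labelled H1993 adherent. Over whole libraries the share was between 8.43% and 11.6%. LPIN1 intron reads numbered 366 in A549 spheroids and 178 in A549 adherent cells, a log2 fold of 0.98 (0.71 to 1.24) beside 1.33 in exons. In the H1993 pair the LPIN1 intron fold was 0.48 (0.19 to 0.77) beside 0.83 in exons. DGAT1 had 320 intron reads in H1993 spheroids and 81 in the library labelled H1993 adherent, a fold of 2.17 (1.81 to 2.54) beside 2.07 in exons. GPAT3 had 10 intron reads in H1993 spheroids and 132 in the library labelled H1993 adherent, a fold of -3.54 (-4.63 to -2.61) beside -2.57 in exons. For these 3 genes the intron and exon intervals overlapped in both pairs. Between the spheroid libraries the intervals were apart in 4 of the 10 genes. DGAT1 was among them, with 3.05 (2.58 to 3.55) in introns beside 2.11 in exons.

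In other genes the intron and exon folds were apart within the culture pairs. AGPAT2 had 35 intron reads in A549 spheroids and 39 in A549 adherent cells, a log2 fold of -0.22 (-0.92 to 0.48) whose interval did not overlap that of its exon fold of 0.88. In the H1993 pair its intron fold was 1.59 (1.04 to 2.17), from 101 reads in spheroids and 38 in the library labelled H1993 adherent, and its interval overlapped that of the exon fold. LPIN2 had 30 intron reads in A549 spheroids and 54 in A549 adherent cells, a fold of -0.91 (-1.61 to -0.24) beside 0.41 in exons. Its H1993 intron fold was -0.20 (-0.84 to 0.43) beside 0.70 in exons. GPAT4 and AGPAT3 also had intervals that did not overlap in the A549 pair. In that pair the intron fold lay below the exon fold in 9 of the 10 genes, and the intron share of the whole library was 8.43% in spheroids and 10.1% in adherent cells. The part of that library difference in the gene values was not tested.

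**Figure D3:**
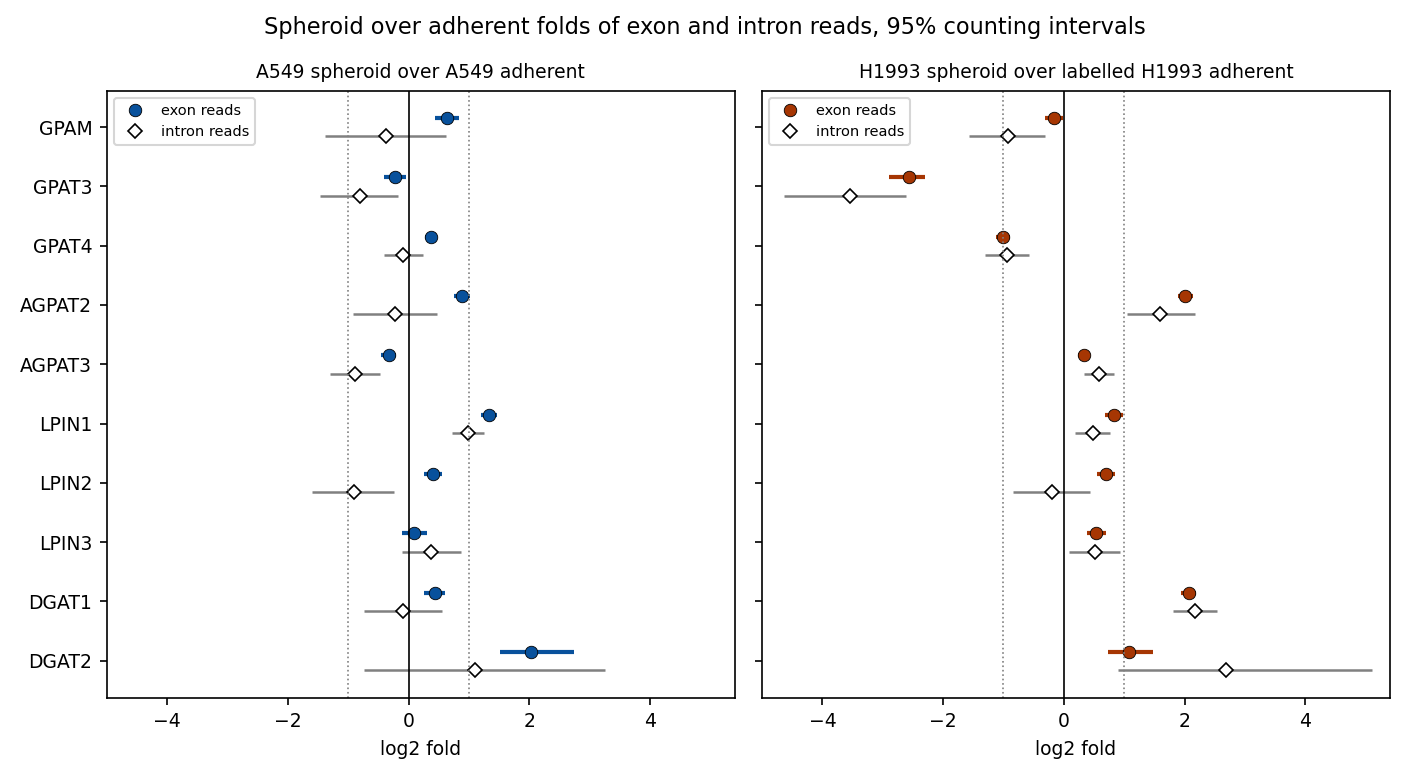
Log2 folds of spheroid over adherent for exon reads (filled circles) and intron reads (open diamonds) with 95% counting intervals, A549 on the left and the H1993 pair as labelled on the right; dotted lines mark 2-fold. Exon and intron folds of DGAT1 lie together in the H1993 pair (2.07 and 2.17), while those of AGPAT2 lie apart in the A549 pair (0.88 and -0.22).

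Between the spheroid libraries, 3 of the 10 genes were called, where 37.1% of all kept genes were called, 18.0% higher and 19.1% lower. DGAT1 was higher in H1993 spheroids than in A549 spheroids, with a log2 fold of 2.11 (1.98 to 2.24). GPAT3 was lower at -1.87 (-2.21 to -1.59) and GPAT4 lower at -1.26 (-1.37 to -1.15). LPIN1 stood at -0.67 (-0.79 to -0.55) and AGPAT2 at 0.81 (0.72 to 0.91), both under the limit. The median of the 10 was 0.40.

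Between the libraries labelled adherent, 2 of the 10 genes were called, where 12.4% of all kept genes were called, 6.94% higher and 5.49% lower. GPAM stood at 1.06 (0.88 to 1.24) and DGAT2 at 1.49 (0.94 to 2.21), both higher in the library labelled H1993 adherent than in A549 adherent cells. The GPAM fold was 0.59 in reads that span exon junctions, under the limit. The other 8 genes lay between -0.31 and 0.47, with AGPAT2 at -0.31 (-0.47 to -0.16) and DGAT1 at 0.47 (0.30 to 0.65). The median of the 10 was 0.33. These comparisons share their libraries with the culture pairs, so none is an independent repeat of another.

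Over both lines, with line as a term, edgeR's quasi-likelihood test called 0 of 15273 genes for culture at an adjusted p under 0.05. At an unadjusted p under 0.05 it had 1258 genes, 8.24% of those tested, and DESeq2 called 591 at its adjusted p. None of the 10 genes was among the calls of either tool. AGPAT2 had a log2 fold of 1.45 with an adjusted p of 0.539 by edgeR, and was higher in spheroids in both lines. LPIN1 had 1.08 with an adjusted p of 0.604, DGAT1 1.25 with 0.642, DGAT2 1.59 with 0.655 and GPAT3 -1.40 with 0.711. The other 5 genes lay between -0.32 and 0.55. Across the A549 and H1993 pairs, 6 of the 10 genes were above 0 in both, GPAT3 was below 0 in both, and GPAM, GPAT4 and AGPAT3 were opposite. LPIN3 is among the 6, and stood just below 0 in the A549 pair with scaling by total exon reads alone. The fit has 1 residual degree of freedom, the difference between the lines in their culture folds, and holds the library labelled H1993 adherent.

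Genes beside AGPAT2, DGAT1 and AGPAT3 on their chromosomes had the 3 highest neighbour medians of the 10 genes in the H1993 pair. For each of the 10 genes the 10 nearest kept genes on each side were taken, a description chosen after values were seen. Over all kept genes 17.0% were called higher and 18.0% lower in the H1993 pair. The 20 neighbours of AGPAT2 on chromosome 9 had a median log2 fold of 1.13 in the H1993 pair, with 11 called higher and 1 lower, and of 0.11 in the A549 pair. The 20 neighbours of DGAT1 on chromosome 8 had a median of 0.82 in the H1993 pair, with 19 above 0, 7 called higher and 1 called lower, and of 0.27 in the A549 pair. AGPAT2 and DGAT1 themselves stood at 2.01 and 2.07 in the H1993 pair, above these medians, and no DGAT1 neighbour was above DGAT1. The neighbours of AGPAT3 had a median of 0.77 there, with 8 called higher and 2 lower, beside 0.33 for AGPAT3. The neighbours of GPAT4 had a median of -0.67 in the H1993 pair, beside -1.01 for GPAT4. Neighbours of GPAT3 had a median of -0.08 there, beside -2.57 for GPAT3. In the A549 pair the neighbours of LPIN1 and DGAT2 had medians of 0.06 and -0.14, beside 1.33 and 2.03 for the genes themselves. The part of position on the chromosome in the gene values was not tested.

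**Figure D4:**
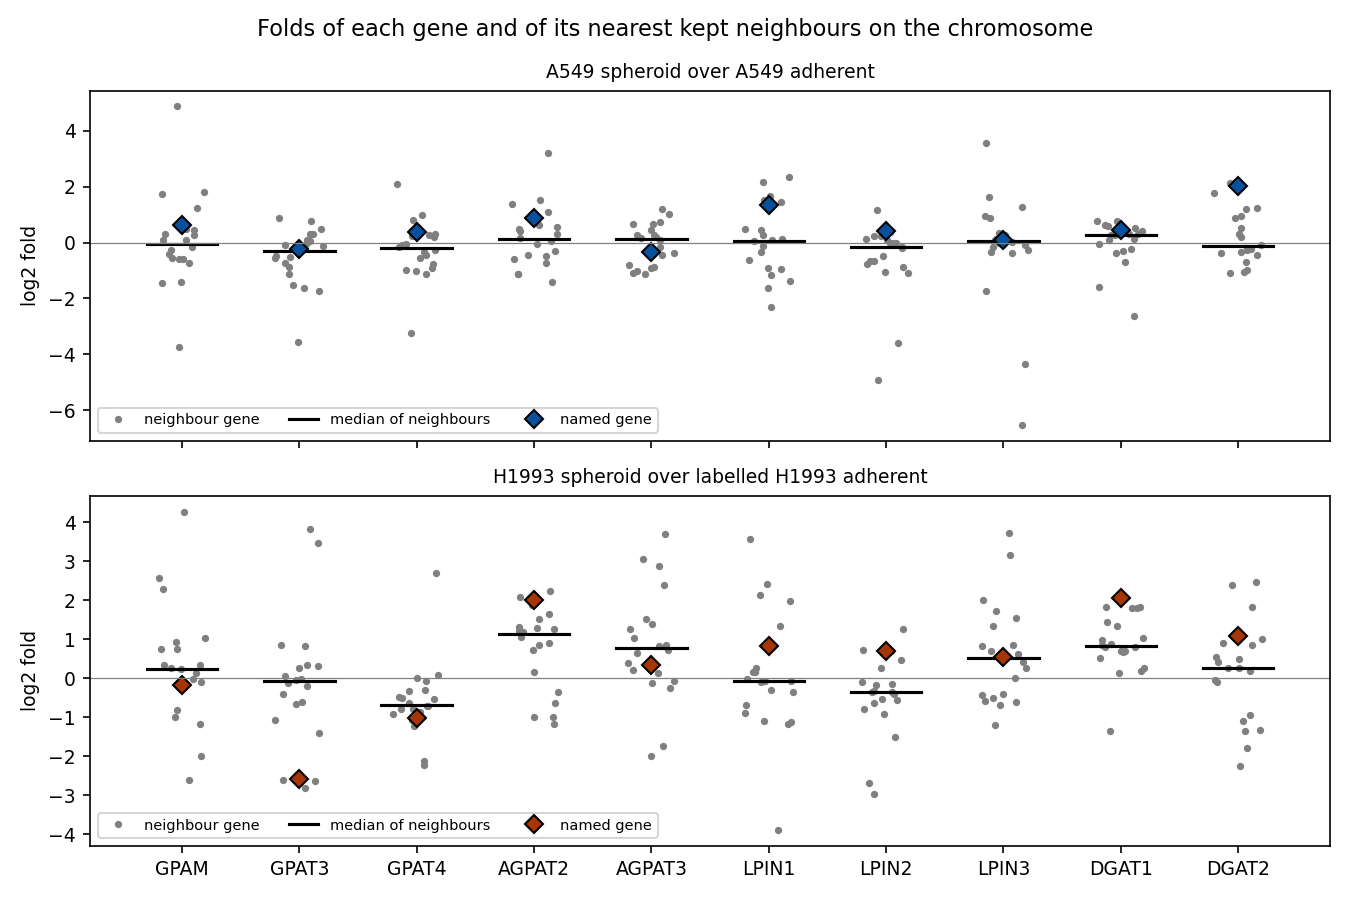
Log2 folds of spheroid over adherent for each gene (diamonds), its 20 nearest kept genes on the chromosome (grey points) and their median (bars), A549 above and the H1993 pair as labelled below. Neighbour medians reach 1.13 for AGPAT2 and 0.82 for DGAT1 in the H1993 pair, and lie at 0.06 for LPIN1 and -0.14 for DGAT2 in the A549 pair.

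Further genes of the pathway and its branches were listed by role, 51 in all, of which 41 were kept. In the A549 pair 5 of the 41 were called higher and 2 lower, beside 12.4% higher and 10.3% lower over all kept genes, with a median log2 fold of 0.17 over the 42 with enough reads. AQP3 and AQP7, channels that let glycerol into cells, stood at 3.15 (3.02 to 3.29) and 3.07 (2.51 to 3.96). GK, the kinase that makes glycerol-3-phosphate from glycerol, stood at 1.29 (0.99 to 1.63), so 3 of the 5 kept genes of glycerol phosphate supply were called higher, of 7 listed. BSCL2, the seipin protein of droplet assembly, stood at 1.68 (1.44 to 1.95). On the lower side were MBOAT1, a lysophospholipid acyltransferase, at -2.13 (-3.35 to -1.40) and DGKH, a diacylglycerol kinase, at -1.41 (-1.65 to -1.19).

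In the H1993 pair 9 of the 41 kept genes were called higher and 12 lower, beside 17.0% higher and 18.0% lower over all kept genes, with a median of -0.20. In the branch towards phospholipids, which includes the diacylglycerol kinases, 5 of 13 genes were higher and 4 lower. CDS1, which turns phosphatidate into CDP-diacylglycerol, stood at 3.47 (3.16 to 3.88) from 733 reads in H1993 spheroids and 73 in the library labelled H1993 adherent. Its isoenzyme CDS2 went the other way, at -1.86 (-2.00 to -1.74), from 587 reads in spheroids and 2433 in the library labelled H1993 adherent. CHPT1, which makes phosphatidylcholine from diacylglycerol, stood at -2.64 (-2.89 to -2.42) from 169 reads in spheroids and 1204 in the library labelled H1993 adherent. CEPT1, of the same branch, was called higher at 1.17 (0.99 to 1.37). GPAT2 stood at 3.41 (2.79 to 4.56), and TMEM159, now named LDAF1, a partner of seipin, at 2.85 (2.60 to 3.14). DGKQ, a diacylglycerol kinase, stood at 2.27 (2.12 to 2.45) and MBOAT1 at -3.19 (-5.27 to -2.31) from 5 reads in spheroids and 69 in the library labelled H1993 adherent. Of 4 further lysophosphatidate acyltransferases 0 were called higher and 2 lower, AGPAT4 and AGPAT5. Of 3 lipid phosphate phosphatases 0 were called higher and 2 lower, PLPP1 and PLPP3. Among the 5 kept genes of glycerol phosphate supply 1 was called higher, AQP3 at 2.13 (2.04 to 2.22), and 0 lower. AQP7 stood at -0.01 and GK at -0.71 in this pair, neither called.

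Genes with the most similar profile over the 4 libraries were found for 5 of the 10 genes, by the Euclidean distance between log2 CPM values centred on their mean, among 12322 genes. The nearest to DGAT1 were ZNF654 and EPHA10, at distances of 0.063 and 0.087. Those of DGAT2 were RNF125 at 0.213 and PPFIA4 at 0.290, and those of AGPAT2 were GAS5 and RUNX1, both at 0.125. LPIN1 was nearest to AL355987.4 at 0.086 and SPRY1 at 0.135, and GPAT3 to DYRK3 at 0.096 and WDR54 at 0.137. No gene of the 10 was among the 2 nearest of another, and DGAT1 stood at 1.35 from DGAT2. These distances rest on 4 values a gene.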

How the data were processed

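Stranded mRNA libraries were made from total RNA of 4 cultures, 1 per line and culture, and groups are those of the labels. The authors deposited 1 table per library with counts of exon, intron and junction reads per gene, and TPM and RPKM values, per the file headers. The build was hg38, per the submitters' processing notes, and no aligner, counter or annotation release is named in the sources used here. The deposited RPKM served only as an alternative for shares. The deposited TPM gave levels and shares, whose intervals rest on Poisson variances of the reads.

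The 10 genes, the further lists and the motifs were chosen with earlier results of these data known. Genes were filtered with filterByExpr and scaled by TMM (edgeR 4.0.16, R 4.3.3). Folds of total exon counts used a prior count of 2 and exact Clopper-Pearson intervals. Intron folds used the scaling of the exon counts. Intron shares had Wilson intervals in the tables. glmQLFit and glmQLFTest ran over all 15273 kept genes with line and culture as terms and Benjamini-Hochberg adjustment, with DESeq2 1.42.0 as the alternative. The edgeR fit, the 2-fold rule and the counting intervals were tried on simulated data, and DESeq2 was not. With 1 library for each line and culture, the residual of the fit reflects how far the culture folds of the lines differ. The p-values set the shared fold against that difference, and not against a spread between replicates. Where nothing says that libraries came from separate cultures, p-values measure no spread between cultures. PCR reads are not independent molecules, so intervals cover counting error only. Depth limits DGAT2 most, with 29 to 176 reads, and GPAT3 in H1993 spheroids, with 109.

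All 10 genes were named in every library. Of the further genes, up to 6 called ones with the largest folds were named per pair, and for likeness the 2 nearest genes with at least 100 reads in 1 library. AGPAT4, AGPAT5, PLPP1, PLPP3, CDS2 and CEPT1 were named after their values were seen. The same holds for AQP3, AQP7 and GK in the H1993 pair. Promoter windows came from RefSeq (GRCh38.p14) and were matched by symbol for 6 of the 10 genes. GPAT4, LPIN3, DGAT1 and DGAT2 had none in the table used. Protein motifs were not searched.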

Additional observations from a re-analysis of the deposited data

Results flagged for a closer look

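Folds in the 2 lines were opposite, with both counting intervals excluding no change, in 3 of the 10 genes. Of the further pathway genes 2 were called in opposite directions, and others that were opposite without both calls are not listed. There was 1 library a group, and the difference between lines was not tested. Among the acyltransferases, AGPAT3 had a log2 fold of -0.33 in the A549 pair and 0.33 in the H1993 pair as labelled. GPAM had 0.63 in the A549 pair and -0.16 in the H1993 pair, and GPAT4 had 0.37 in the A549 pair and -1.01 in the H1993 pair. BSCL2 (seipin) stood at 1.68 in the A549 pair and -1.70 in the H1993 pair. LPGAT1, a lysophospholipid acyltransferase, stood at 1.04 in the A549 pair and -1.80 in the H1993 pair. Each H1993 fold holds the library labelled H1993 adherent.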

How the results depend on the processing

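The calls of the 10 genes in the 4 comparisons were kept with DESeq2 size factors, total exon reads alone, other prior counts, unique reads, gene reads, no filter and no mitochondrial genes. Scaling by total exon reads alone moved the median of all genes to -0.11 in the A549 pair, -0.06 in the H1993 pair, 0.09 between spheroid and 0.05 between adherent libraries. With a limit of 1.5-fold, 4 of the 10 genes and 5992 of all genes were called in the A549 pair, 7 and 8085 in the H1993 pair, 7 and 8434 between spheroid libraries, and 2 and 3532 between adherent libraries. Junction reads, added after seeing the data, left 1 call of the 10 and 1062 of all genes between adherent libraries, where GPAM lost its call. They added calls of LPIN1 in the H1993 pair (1.03) and of DGAT2 between spheroid libraries (1.27). Total intron reads as scaling gave 1 intron fold past 2-fold in the A549 pair, against 0.

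Over both lines DESeq2 called 591 genes and no filter on low counts 173, against 0. The fold of AGPAT3, 0.0016, turned to -0.021 with no filter and -0.00019 with unique reads. The labels give no replicate numbers, so the line served as the block, and with no replicate block 0 genes were called. Without the library labelled H1993 adherent, a fit of 3 libraries added after seeing the data also called 0. The cause of these changes was not tested. Of 40 isoenzyme shares, 28 moved with all isoenzymes in the sum and 36 as shares of reads. As shares of reads AGPAT3 led AGPAT2 in A549 adherent cells (62.8%) and in the library labelled H1993 adherent (70.4%). AGPAT2 led in A549 spheroids (58.0%) and H1993 spheroids (57.3%). Among the lipins LPIN1 led in H1993 spheroids (36.1%) and LPIN2 in the library labelled H1993 adherent (34.2%), where LPIN3 led by TPM.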
